A study of Mus musculus with 32 samples.

Results

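The comparison set CD8 T cells recovered from allogeneic recipients that had been given regulatory T cells (Treg) against CD8 T cells recovered from syngeneic recipients, and asked what of the response to recipient alloantigen was still visible in the CD8 cells when Treg were present. It rested on 4 Treg-treated and 3 syngeneic libraries of the 31 in the expression table, taken by the cell type and treatment in their labels. The donor cells were from C57Bl6 mice. The Treg-treated group had received them across a major histocompatibility mismatch, in Balb/c recipients developing graft-versus-host disease (GVHD), together with Treg on the day of transplantation (day 0). The syngeneic group was an untreated control whose recipient strain the labels do not name. In both groups, T cells were sorted from spleen and lymph nodes, at day 6 by the sample titles and at day 8 by the series description. For setting values side by side, 4 CD8 libraries from allogeneic Balb/c recipients given no Treg were used, called allogeneic below. The labels give no sort markers, no ages and no number of mice per library, so p-values measure the spread between libraries. The replicates are named with JL019 or JL027, and values are listed in the order JL019-1, JL019-2, JL027-1 and JL027-2 for Treg-treated and allogeneic cells, and JL019-1, JL019-2 and JL027 for syngeneic cells.

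Naive CD8 T cells circulate through lymph nodes by way of homing receptors such as CCR7, and the transcription factors TCF-1 and LEF-1 hold them in that state. Recognition of foreign major histocompatibility molecules drives them to divide, to load granules with granzymes and perforin, and to display activating and inhibitory receptors. Donor T cells in a syngeneic host meet no alloantigen but can still divide in response to homeostatic cytokines. Treg limit GVHD through, among other routes, competition for interleukin-2 and inhibitory receptors.

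The values were normalised counts, that is, estimated read counts scaled between libraries by the authors, and tests were run with limma on log2(value + 1), with Benjamini-Hochberg adjustment over all 16741 genes and a threshold of 0.05. Adding 1 makes the fold of weakly expressed genes look smaller than it was. Every adjusted p below is from this limma fit, whose variance was pooled over all 31 libraries, CD4, Treg and day 0 libraries among them. With only the compared groups in the fit, the calls between Treg-treated and syngeneic cells fell from 3045 to 1974. Without the CD4 syngeneic library JL019-2 they rose to 3543. The mean normalised count per gene ran from 1761 to 2385 in Treg-treated and from 1624 to 2119 in syngeneic libraries, and 351 to 547 and 223 to 693 genes were at 0, so the groups overlapped on both. Treg-treated library JL019-2 had the highest mean and, with syngeneic library JL027, the steepest fall of values with the genomic length of a gene. Y-linked genes were high in the JL027 libraries of both groups and low in the JL019 libraries of both. Each prefix held libraries of both groups.

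In all, 3045 genes, or 18.2% of those tested, differed between Treg-treated and syngeneic CD8 cells. Of these, 1601 (9.56%) were higher and 1444 (8.63%) were lower, and the median log2 change of all genes was 0.01. The 4 and 3 libraries did not overlap for 3905 genes (23.3%). Within the JL019 and the JL027 libraries alone, 1202 and 1307 genes passed, and all 281 called genes of the lists and rules used below kept their direction within both. These 281 were called on the same libraries, and genes chosen for lack of overlap must keep their direction, so this is no independent support. Against allogeneic CD8 cells without Treg, the same 4 libraries differed in 11 genes (0.0657%), 8 of them higher (0.0478%) and 3 lower (0.0179%), and 1851 had an unadjusted p under 0.05. Both comparisons used the same Treg-treated libraries, so each gene's values are given below side by side and no overlap between the comparisons is counted.

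**Figure D1:**
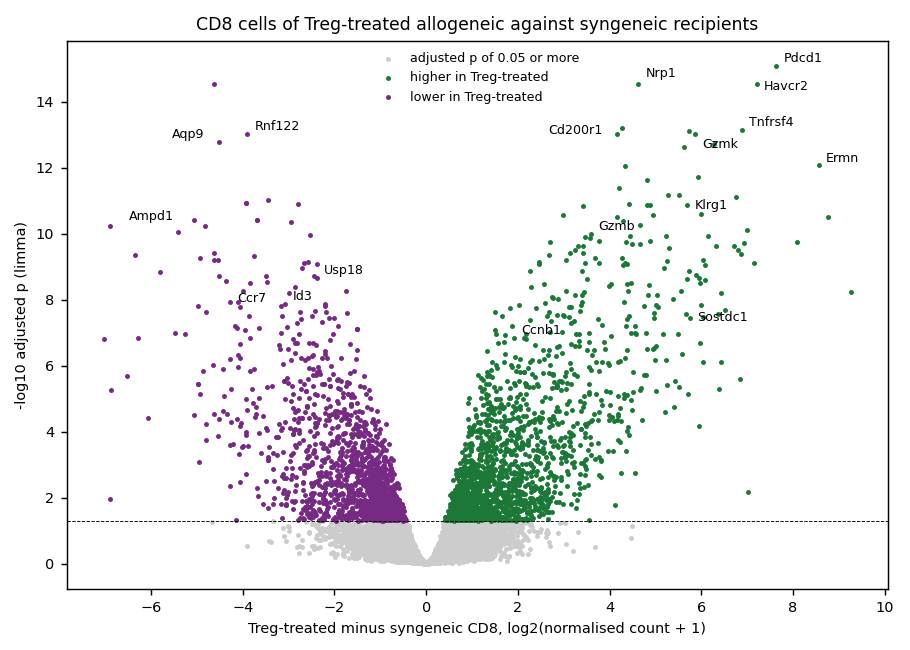
Each point is a gene: the horizontal axis is the Treg-treated minus syngeneic difference in log2(normalised count + 1), the vertical axis the -log10 of the limma adjusted p, and the dashed line the threshold of 0.05. Pdcd1 and Havcr2 lie farthest up on the right.

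The gene with the lowest p was Pdcd1 (ENSMUSG00000026285, chr1:94038305-94052553 in GRCm38.p6), which encodes the inhibitory receptor PD-1. Its normalised counts were 42172, 27656, 22478 and 34961 in Treg-treated cells, 143, 135 and 190.1 in syngeneic cells and 22468, 23495, 18997 and 26576 in allogeneic cells. The lowest Treg-treated library stood far above the highest syngeneic one, a log2 difference of 7.64 ± 0.30 (SE, adjusted p = 7.9e-16). Against allogeneic cells the difference was 0.45 (95% interval -0.13 to 1.02), so Pdcd1 was not shown to be lower, or higher, with Treg. Havcr2 (ENSMUSG00000020399, chr11:46454931-46481255), encoding the inhibitory receptor TIM-3, read 9945, 7248, 10076 and 10759.6 against 51.7, 43.5 and 108 in syngeneic cells and 7813, 8809, 12726 and 9538 in allogeneic cells. All Treg-treated libraries were again above all syngeneic ones, by 7.21 ± 0.31 (SE, adjusted p = 2.9e-15), and among allogeneic libraries they overlapped, with a difference of -0.02 (95% interval -0.62 to 0.57).

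Of the 15 inhibitory receptors measured, 10 were higher, 3 were lower and 2 did not pass the test, with a median log2 change of 2.88. Tigit, a receptor for nectin-family ligands, read 3929, 4307, 2845 and 3533 against 118, 105 and 165, a difference of 4.82 ± 0.30 (SE, adjusted p = 2.4e-12). Ctla4, which competes with CD28 for B7 ligands, read 13333, 15217, 4532 and 6388 against 71.0, 74.4 and 97.5, with the 2 JL019 libraries above both JL027 libraries, and differed by 6.75 ± 0.44 (SE, adjusted p = 7.7e-12). Lag3, a ligand of class II molecules, differed by 5.28 ± 0.34 (SE, adjusted p = 6.5e-12). None of these 3 overlapped between Treg-treated and syngeneic cells. Cd200r1, the receptor for CD200, read 551, 783, 605 and 596 against 27.9, 36.5 and 38.5, and allogeneic cells lay between the groups at 193, 213, 338 and 284. It was higher than in syngeneic cells by 4.17 ± 0.22 (SE, adjusted p = 9.2e-14) and also higher than in allogeneic cells, by 1.32 (95% interval 0.91 to 1.73, adjusted p = 0.0029). The 3 receptors that were lower were Lair1 (-0.89), Nt5e (-1.49), which encodes the ectonucleotidase CD73, and Cd101 (-0.71). Cd160 and Btla did not pass, with log2 changes of -0.31 and -1.01.

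Havcr2 is shown with the 250 bases before its start (RefSeq, GRCm38.p6, chr11:46454681-46454930, plus strand) because it was the receptor with the largest change among those whose window held the AP-1 letters TGANTCA, marked in capitals. These letters, searched on both strands, were in 2 of the 13 inhibitory receptor windows (15.4%) and in 4.80% of the windows of the 11718 genes of the table that had one.
Havcr2: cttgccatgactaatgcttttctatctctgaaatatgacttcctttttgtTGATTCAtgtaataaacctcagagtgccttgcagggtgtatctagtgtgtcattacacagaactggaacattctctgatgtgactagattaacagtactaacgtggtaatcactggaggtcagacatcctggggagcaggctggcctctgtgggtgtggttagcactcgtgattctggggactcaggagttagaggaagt
The last base of the single match lay 194 bases before the start. A match is a description of the letters and does not show that a factor binds there.

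Among 18 costimulatory receptors, 10 were higher and 3 lower, with a median of 1.00 (1.08 within JL019 and 0.63 within JL027). Tnfrsf4, encoding OX40, read 4556, 9128, 4807 and 5890.5 against 31.1, 74.5 and 49.8, and the difference was 6.88 ± 0.35 (SE, adjusted p = 7.0e-14). Tnfrsf9, encoding 4-1BB, rose by 3.43 ± 0.28 (SE, adjusted p = 3.7e-10), Icos by 3.44 ± 0.32 (SE, adjusted p = 5.9e-09) and Slamf1 by 2.55 ± 0.30 (SE, adjusted p = 3.3e-07). For Tnfrsf4, Tnfrsf9 and Icos, every Treg-treated library was above every syngeneic one, and against allogeneic cells the differences were 0.28 (95% interval -0.39 to 0.94), 0.40 (95% interval -0.12 to 0.93) and 0.47 (95% interval -0.15 to 1.08). Lower members were Cd6 (-1.74), Cd5 (-0.96) and Crtam (-0.91), of which Cd5 and Cd6 encode scavenger-type receptors that tune T cell receptor signals.

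Transcription factors of effector and exhausted cells changed mostly upward, 14 of 23 higher and 1 lower, with a median of 1.32. Prdm1, encoding Blimp-1, read 2285, 1297, 1429 and 1239 against 142, 171 and 84.1, a difference of 3.56 ± 0.27 (SE, adjusted p = 1.3e-10). Allogeneic cells read 3111, 2972, 2326 and 3110.0, all above the Treg-treated libraries, but the difference of -0.92 (95% interval -1.43 to -0.40, adjusted p = 0.16) did not pass the test. Ikzf2, encoding Helios, rose by 2.97 ± 0.36 (SE, adjusted p = 4.2e-07). Maf rose by 3.25 ± 0.26 (SE, adjusted p = 3.0e-10), Bhlhe40 by 3.15 ± 0.36 (SE, adjusted p = 2.1e-07) and Tox2, of the TOX family, by 4.79 ± 0.63 (SE, adjusted p = 1.9e-06). Tox itself rose by 1.18 ± 0.34 (SE, adjusted p = 0.014). Eomes, a T-box factor of memory and natural killer cells, was the member that fell, with 1146, 803, 1232 and 1297 against 4985, 5311 and 4457 and a change of -2.15 ± 0.26 (SE, adjusted p = 5.8e-07). Tbx21, encoding T-bet, and Runx3 did not pass the test, with changes of -0.26 and 0.09.

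**Figure D2:**
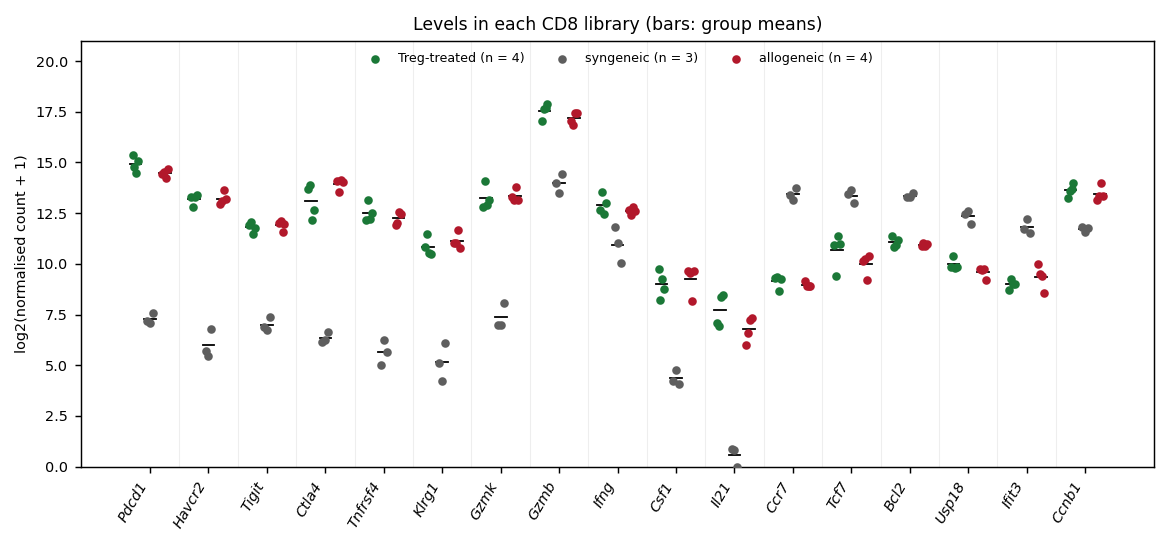
The vertical axis is log2(normalised count + 1) for the genes named on the horizontal axis, each point is 1 CD8 library, and bars are group means. For Pdcd1 to Il21 and for Ccnb1 the Treg-treated libraries lie above the syngeneic ones, and for Ccr7 to Ifit3 below them.

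Cytolytic genes were higher in 17 of 25 cases and lower in 2, with a median of 1.20. Gzmk, a granzyme of effector and memory cells, read 7267, 17126, 7736 and 8971 against 128, 128 and 269, with JL019-2 the highest, and differed by 5.87 ± 0.31 (SE, adjusted p = 9.2e-14). Gzmb, the granzyme that cleaves caspases, read 133187, 205511, 211116 and 237816 against 16202, 11542 and 21999, a difference of 3.59 ± 0.27 (SE, adjusted p = 9.8e-11). For both, the lowest Treg-treated library exceeded the highest syngeneic one. Serpinb6b rose by 3.42 ± 0.23 (SE, adjusted p = 1.4e-11). Gzma rose by 5.73 ± 0.50 (SE, adjusted p = 1.4e-09), Prf1, encoding perforin, by 1.40 ± 0.28 (SE, adjusted p = 5.6e-04) and Fasl by 1.10 ± 0.29 (SE, adjusted p = 0.0073). Gzmc rose by 5.51 ± 0.35 (SE, adjusted p = 6.4e-12), reading 2836, 6113, 5052 and 5768 against 1198, 1482, 1789 and 2611 in allogeneic cells, where the groups did not overlap but the difference of 1.48 (95% interval 0.81 to 2.15, adjusted p = 0.078) missed the threshold. Gzmd and Gzme were listed at 0 in all 3 syngeneic libraries and read 27.8, 34.9, 111 and 64.3 and 37.7, 76.5, 159 and 103 in Treg-treated cells (limma adjusted p = 7.4e-06 and adjusted p = 4.9e-06). Gzmd, Gzme and Gzmf are near-identical neighbours, and the estimated counts may have divided reads among them in ways that cannot be checked here.

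Serpinb9, the inhibitor of granzyme B, changed by 3.47 ± 0.26 (SE, adjusted p = 1.3e-10). Its relative Serpinb9b read 1025, 907, 628 and 555 against 12.2, 7.25 and 14.9 and differed by 5.98 ± 0.54 (SE, adjusted p = 3.1e-09). In allogeneic cells Serpinb9b stood higher, at 2678, 2284, 2834 and 1738 with no overlap, but the Treg-treated minus allogeneic difference of -1.63 (95% interval -2.66 to -0.60, adjusted p = 0.23) did not pass. Gzmm was the granzyme of the list that was lower, and it read 879, 2031, 633 and 805 against 13342, 10706 and 19175 and changed by -3.84 ± 0.50 (SE, adjusted p = 1.4e-06). Lamp1, the granule membrane protein CD107a, was also lower, with a change of -0.96 ± 0.18 (SE, adjusted p = 2.1e-04).

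Of 26 cytokine and chemokine genes, 15 were higher and 5 lower, with a median of 1.82. Csf1, encoding the macrophage growth factor M-CSF, read 862, 298, 605 and 439.7 against 17.8, 26.1 and 15.6 and rose by 4.65 ± 0.34 (SE, adjusted p = 5.3e-11). Il21 read 133, 123, 323 and 353 against 0.854, 0.746 and 0 (adjusted p = 7.5e-10 in limma), the syngeneic libraries all being under 1. Ifng read 6541, 11806, 5649 and 8285 against 3581, 2067 and 1042, a difference of 1.97 ± 0.32 (SE, adjusted p = 3.8e-05) without overlap, and Il4 rose by 4.43 ± 0.46 (SE, adjusted p = 3.1e-08). Ccl1, a ligand of CCR8, read 707, 1619, 990.3 and 1246 against 26.7, 24.1 and 24.3, a difference of 5.39 ± 0.52 (SE, adjusted p = 9.1e-09), with allogeneic cells between the groups at 144, 243, 579 and 324. Il10 lay between as well, from the other side: it read 56.8, 120.4, 51.7 and 107 against 6.67, 2.52 and 1.17 in syngeneic and 209, 187, 252 and 197 in allogeneic cells. Its difference from syngeneic cells was 4.36 ± 0.47 (SE, adjusted p = 6.1e-08) and from allogeneic cells -1.41 (95% interval -2.29 to -0.52, adjusted p = 0.23). Il3, Il13 and Il22 were listed at 0 in every syngeneic library, with 29.1, 11.8, 8.56 and 31.6 for Il3, 6.68, 9.70, 10.6 and 15.3 for Il13 and 2.23, 8.47, 11.6 and 15.3 for Il22 in Treg-treated cells.

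The 5 cytokine genes that were lower were Tnf, Lta, Ltb, Tnfsf14 and Cxcl10, while Tnfsf11, of the tumour necrosis factor family like the first 4, was higher (1.59 ± 0.37 SE, adjusted p = 0.0026). Tnf read 266, 313, 191 and 242 against 1455, 1104 and 756, a change of -2.09 ± 0.32 (SE, adjusted p = 1.7e-05). Lta changed by -2.33 ± 0.30 (SE, adjusted p = 1.5e-06), Ltb by -1.58 ± 0.30 (SE, adjusted p = 3.0e-04) and Tnfsf14 by -0.80 ± 0.28 (SE, adjusted p = 0.045). Cxcl10, a ligand of CXCR3, changed by -1.63 ± 0.51 (SE, adjusted p = 0.023) and overlapped between the groups. Xcl1, the ligand of the dendritic cell receptor XCR1, did not pass the test against syngeneic cells, reading 698, 2010.4, 791 and 1281 against 1639, 1402 and 2249, a difference of -0.66 ± 0.50 (SE, adjusted p = 0.43). Allogeneic cells read 132, 261, 400.3 and 239, all below every Treg-treated library, a difference of 2.18 (95% interval 1.24 to 3.13, adjusted p = 0.068).

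Of 22 naive and memory genes, 17 were lower, none was higher and 5 did not pass the limma threshold, with a median of -1.72. Treml2, Dapl1 and Igfbp4 changed by -3.70, -4.63 and -4.62, all without overlap. Ccr7 read 633, 663, 409 and 603 against 10859, 8998 and 13757, a change of -4.28 ± 0.42 (SE, adjusted p = 1.1e-08). Tcf7, encoding TCF-1, read 1975, 679, 2628 and 1989 against 11003, 13003 and 8215 and changed by -2.70 ± 0.49 (SE, adjusted p = 1.8e-04), with JL019-2 the lowest. Lef1 changed by -1.03 ± 0.29 (SE, adjusted p = 0.011), Bach2 by -3.08 ± 0.45 (SE, adjusted p = 9.9e-06) and Foxo1, a forkhead factor of quiescent cells, by -1.27 ± 0.39 (SE, adjusted p = 0.022). The 5 members that did not pass were Il7r (-0.65), Klf2 (-0.59), S1pr1 (-0.35), Slamf6 (0.38) and Actn1 (-0.74).

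Outside the lists, the lower genes with the lowest p included Rnf122 (-3.91), an E3 ubiquitin ligase, Aqp9 (-4.51), a channel for water and glycerol, Ampd1 (-5.07), an AMP deaminase, and Nrp2 (-4.82). Nrp2 read 17.4, 30.8, 19.4 and 25.5 against 716, 684 and 615, whereas its relative Nrp1, a semaphorin receptor, went the other way, with 2358, 1004, 1859 and 1796 against 64.6, 72.8 and 63.8 and a change of 4.63 ± 0.20 (SE, adjusted p = 2.9e-15). Among the higher genes with the lowest p were also Swap70 (4.28), Tubb6 (5.73), a tubulin, Srxn1 (4.34), which repairs peroxiredoxins, and Ermn. Ermn read 577, 678, 524 and 714 against 0, 3.36 and 0 (adjusted p = 8.2e-13 in limma).

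Markers of other cell types were summed in each library, and no measured marker was at 0 throughout the Treg-treated or the syngeneic libraries. Beside the counts of markers below stand the 18.2% of all genes that were called and the 23.3% without overlap. Of 12 myeloid markers, 3 were lower (Lyz2, Csf1r and Csf3r), and 1 was higher (Cd68). Their median change was -1.27 (-1.29 within JL019, where 0 were called, and -0.28 within JL027). Their summed normalised counts were 2903 to 6392 in Treg-treated and 12396 to 17223 in syngeneic libraries. Lyz2, encoding lysozyme, read 2646, 3530.3, 1629 and 1299 against 10276, 13754 and 13870.4, and made up most of the sum in every syngeneic library. B cell markers summed to 1309 to 2062 and 3275 to 4051, with 1 of 7 called (14.3%, below the share of all genes), Cd22, which was lower. The sums of the next 4 lists were higher with Treg, without overlap, but in 3 of them 1 gene made up most of the sum in every Treg-treated library. Of 3 CD4 T cell markers, Cd40lg (3.05) and Zbtb7b (3.02) were higher, and the sums were 252 to 537 in Treg-treated and 70.2 to 97.9 in syngeneic libraries. Cd4 itself did not pass, at 8.76, 70.7, 38.1 and 16.6 against 53.9, 27.8 and 17.7. Of 5 plasma cell markers, Xbp1 was higher (1.21), with sums of 5708 to 7257 in Treg-treated and 2581 to 3391 in syngeneic libraries, of which Xbp1 alone had means of 6495 and 2802. The median change of the 5 was -0.28 (-0.45 within JL019 and 1.19 within JL027). Jchain (-1.19) was lower and Derl3 (1.49) higher in every Treg-treated library than in any syngeneic one, but neither passed. Of 5 dendritic cell markers, Itgax was higher (2.23), with sums of 861 to 2377 in Treg-treated and 344 to 659 in syngeneic libraries, of which Itgax had means of 1007 and 219. The median change of the 5 was 0.37. Flt3 (-1.17) and Siglech (-2.09) lay lower and Xcr1 (1.20) higher with Treg, without overlap, and none of these 3 passed. Of 5 stromal and endothelial markers, Pecam1 was higher (1.05) and Col3a1 lower (-2.17), with sums of 2084 to 3039.6 in Treg-treated and 959 to 1552 in syngeneic libraries, of which Pecam1 had means of 2505 and 1219.6. The median change of the 5 was 0.27 (-0.65 within JL019 and 0.85 within JL027). Sums overlapped between the groups for 4 gamma-delta T cell markers, of which Trdc was lower (-1.84), and for 8 erythroid markers, of which limma called 0, with 1 at an unadjusted p under 0.05. The part of other cells' RNA in the genes that were higher or lower was not tested. In bulk libraries, fewer cells of a type and less RNA per cell cannot be told apart. None of the 5 CD8 T cell markers passed the limma threshold, and none had an unadjusted p under 0.05. Cd8a read 22586, 29769, 25031 and 28831 in Treg-treated, 42077, 33817 and 61115 in syngeneic and 14160.0, 16664, 19947 and 16836 in allogeneic libraries, so the Treg-treated values lay below all syngeneic ones (-0.75 ± 0.66 SE, adjusted p = 0.52).

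Genes of homing and migration split, 8 of 26 higher and 6 lower, with a median of -0.04 (0.14 within JL019 and 0.12 within JL027). Itga4, the alpha 4 integrin chain, read 9838, 6356, 8707 and 6882 against 633, 818 and 754, a difference of 3.42 ± 0.27 (SE, adjusted p = 2.3e-10). Ccr8 changed by 5.30 ± 0.42 (SE, adjusted p = 2.7e-10), Itga1 by 4.40 ± 0.41 (SE, adjusted p = 5.4e-09), Ccr6 by 5.24 ± 0.65 (SE, adjusted p = 6.6e-07), Cx3cr1 by 2.90 ± 0.45 (SE, adjusted p = 2.4e-05) and Cxcr6 by 1.33 ± 0.22 (SE, adjusted p = 4.1e-05). On the lower side were Itgae, encoding CD103 (-2.55 ± 0.37 SE, adjusted p = 9.3e-06), Cxcr5, the receptor of B cell follicles (-2.57 ± 0.52 SE, adjusted p = 5.5e-04), S1pr5 (-3.48 ± 0.83 SE, adjusted p = 0.0031) and Cxcr3 (-0.88 ± 0.21 SE, adjusted p = 0.003). Cd44 and Cd69, common markers of activation, did not pass the test, with changes of 0.01 and -0.11.

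Of 23 tested genes of the killer lectin-like receptor family, without pseudogenes, 5 were higher and 7 lower. Klrg1, a receptor of short-lived effector cells, read 1808, 2879, 1468 and 1438 against 33.4, 17.6 and 67.8, a difference of 5.69 ± 0.38 (SE, adjusted p = 1.3e-11), and Klrk1, encoding NKG2D, rose by 2.56 ± 0.47 (SE, adjusted p = 2.0e-04). Klrc1, encoding NKG2A, rose by 1.82 ± 0.27 (SE, adjusted p = 9.1e-06). The other 2 higher members, Klrb1b and Klrh1, were outside the receptor list and were chosen after their values were seen. Klrb1b read 1193, 1257, 679.9 and 1187 against 0, 3.31 and 2.29, a difference of 8.76 ± 0.62 (SE, adjusted p = 3.1e-11), the largest rise of the 5, and Klrh1 differed by 4.18 ± 0.76 (SE, adjusted p = 1.8e-04). Lower were Klrb1c and the Ly49 genes Klra3, Klra4, Klra5, Klra6, Klra8 and Klra9. Of the 16 receptors on the list, 3 were higher and 5 lower, and the 5 lower ones did not pass within JL019 alone. Klra6 read 4.45, 20.5, 8.45 and 17.4 against 337, 305 and 610.3, a change of -5.06 ± 0.81 (SE, adjusted p = 3.1e-05). Ly49 genes are close paralogs, so reads may have been divided among them. Of 6 natural killer markers, which include 3 of these receptors, Eomes, Klra4, Klra8 and Klrb1c were lower and Ncr1 higher, and their sums overlapped at 68696 to 195226 against 78066 to 142018. Natural killer cells in the sort were not tested as a source.

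Cytokine receptors were higher in 7 and lower in 7 of 23 cases, with a median of -0.45 (-0.61 within JL019 and 0.45 within JL027). Il2ra, the alpha chain of the interleukin-2 receptor, read 5690.1, 3840.1, 7342 and 4784 against 258, 303 and 262, a change of 4.26 ± 0.35 (SE, adjusted p = 5.5e-10). Il1rl1, the interleukin-33 receptor, changed by 4.87 ± 0.38 (SE, adjusted p = 1.6e-10), Il1r2, a decoy receptor, by 3.91 ± 0.46 (SE, adjusted p = 3.1e-07) and Il12rb2 by 2.86 ± 0.54 (SE, adjusted p = 2.5e-04). The 2 chains of the interferon-gamma receptor went in opposite directions, Ifngr1 by 1.31 ± 0.19 (SE, adjusted p = 7.4e-06) and Ifngr2 by -2.76 ± 0.37 (SE, adjusted p = 2.9e-06). Lower were also Ifnar2 (-1.82), Il4ra (-2.39), Il10rb (-1.74), Il21r (-1.54), Il15ra (-0.66) and Tgfbr3 (-4.03).

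The CD3 complex and its proximal signalling genes had 4 of 29 genes called (13.8%), below the 18.2% of all genes. Nfkb1 was higher (1.18 ± 0.16 SE, adjusted p = 4.3e-06), while Lck, the coreceptor kinase (-0.76 ± 0.26 SE, adjusted p = 0.043), Ptpn6, a phosphatase (-0.86 ± 0.18 SE, adjusted p = 7.5e-04), and Socs1, an inhibitor of cytokine signals (-1.36 ± 0.29 SE, adjusted p = 0.0011), were lower. Immediate early genes were called in 4 of 19 cases (21.1%), near the share of all genes. Myc read 1587, 946, 1671 and 1933 against 5421, 5741 and 5646 and changed by -1.92 ± 0.26 (SE, adjusted p = 2.5e-06), and Dusp5 was higher by 1.73 ± 0.47 (SE, adjusted p = 0.0089). Dusp5 read 11109 in Treg-treated library JL019-1 and 3743 to 4183 in the other Treg-treated libraries, and lost the call without syngeneic library JL027. Nr4a1, an early target of T cell receptor signals, did not pass, at 2190.2, 643, 853 and 688 against 1683, 1048 and 195 with a change of 0.44.

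Genes of mitosis were higher in 23 of 25 cases, none lower, with a median of 1.36. Ccnb1, encoding cyclin B1, read 9766, 12321, 13277 and 16449 against 3669.9, 3008 and 3544, a difference of 1.91 ± 0.21 (SE, adjusted p = 1.4e-07). Ccnb2 rose by 1.70 ± 0.21 (SE, adjusted p = 7.4e-07), Prc1, a spindle midzone protein, by 1.43 ± 0.18 (SE, adjusted p = 7.7e-07), the kinetochore motor Cenpe by 1.52 ± 0.19 (SE, adjusted p = 9.7e-07) and Mki67, encoding Ki-67, by 1.46 ± 0.26 (SE, adjusted p = 1.4e-04). In all of these the groups did not overlap. The 2 that did not pass were Bub1b (0.75) and Aurkb (0.70). DNA replication genes were higher in 14 of 25 cases, none lower, with a median of 0.80, led by Rrm2, a ribonucleotide reductase subunit (1.30 ± 0.21 SE, adjusted p = 4.6e-05), and Rpa2 (1.04 ± 0.18 SE, adjusted p = 6.4e-05). Pola1 changed by 1.00 and Cdc45 by 1.01. Among the 11 that did not pass were the helicase genes Mcm2 (-0.05), Mcm3 (0.17) and Mcm5 (0.33). For Mcm3 and Mcm5, Treg-treated library JL019-2 was set apart as the lowest. It read 5196 and 6640, where the other Treg-treated libraries read 12762 to 14995 and 17270 to 17855. Against allogeneic cells the medians were 0.18 for mitosis and 0.30 for replication, and no member was called.

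Since 23 of 25 mitosis genes rose, the 250 bases before the starts of the 3 with the lowest p are shown, with CCAAT boxes (CCAAT) and the cell cycle homology element (TTTGAA) in capitals, from RefSeq in GRCm38.p6. Both were searched on both strands. The windows are chr13:100786487-100786736 for Ccnb1 (minus strand), chr9:70421555-70421804 for Ccnb2 (minus strand) and chr7:80294201-80294450 for Prc1 (plus strand).
Ccnb1: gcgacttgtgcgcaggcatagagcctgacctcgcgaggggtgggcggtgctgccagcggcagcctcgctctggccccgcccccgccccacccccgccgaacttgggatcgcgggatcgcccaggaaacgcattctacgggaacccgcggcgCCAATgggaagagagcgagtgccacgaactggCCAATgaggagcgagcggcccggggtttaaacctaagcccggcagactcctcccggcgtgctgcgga
Ccnb2: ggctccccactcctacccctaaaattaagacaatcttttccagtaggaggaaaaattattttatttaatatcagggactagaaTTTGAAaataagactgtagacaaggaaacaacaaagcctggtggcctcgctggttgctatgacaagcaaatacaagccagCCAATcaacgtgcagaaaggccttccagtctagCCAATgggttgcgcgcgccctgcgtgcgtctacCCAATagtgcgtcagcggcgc
Prc1: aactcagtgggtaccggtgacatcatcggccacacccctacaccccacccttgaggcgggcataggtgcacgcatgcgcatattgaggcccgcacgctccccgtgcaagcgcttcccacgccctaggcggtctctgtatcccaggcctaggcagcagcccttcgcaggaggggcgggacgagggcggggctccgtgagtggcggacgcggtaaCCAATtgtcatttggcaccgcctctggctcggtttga
Ccnb1 held 2 CCAAT boxes, Ccnb2 held 3 and Prc1 held 1, all in the sense of the gene, and Ccnb2 held 1 TTTGAA, with no overlap between matches. CCAAT was in 19 of the 21 mitosis windows (90.5%) and in 36.8% of all 11718, and TTTGAA in 8 of 21 (38.1%) and 12.2%. The E2F letters TTTCCCGC or TTTGGCGC, on both strands, were in 5 of 20 replication windows (25%) and in 2.31% of all.

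Of 26 type I interferon-stimulated genes, 17 were lower and 1, Ifih1, was higher, with a median of -1.07. Usp18, which removes ISG15 and damps the type I receptor, read 929.9, 1329, 903 and 907 against 5688, 6165 and 4046, a change of -2.38 ± 0.21 (SE, adjusted p = 2.2e-09). Ifit3, an RNA-binding antiviral protein, read 418, 611, 521 and 512 against 3327, 4741 and 2985 and changed by -2.82 ± 0.30 (SE, adjusted p = 5.1e-08). Oasl2 changed by -2.50 ± 0.30 (SE, adjusted p = 5.1e-07) and Ifit1 by -2.28 ± 0.28 (SE, adjusted p = 6.0e-07). The sensor gene Ifih1 changed by 1.51 ± 0.39 (SE, adjusted p = 0.0066), with overlapping groups. Of 17 interferon-gamma inducible GTPases, 10 were lower and none higher, with a median of -1.17 (-1.35 within JL019 and -0.66 within JL027). Igtp read 5079.9, 4739, 6226 and 6157 against 11748, 12202 and 13188, a change of -1.17 ± 0.23 (SE, adjusted p = 3.7e-04), Gbp8 changed by -1.52 ± 0.23 (SE, adjusted p = 1.4e-05) and Tgtp1 by -2.58 ± 0.32 (SE, adjusted p = 6.0e-07), although Tgtp1 and Tgtp2 are near-identical. Against allogeneic cells, the differences were 0.37 (95% interval -0.03 to 0.77) for Usp18, -0.35 (95% interval -0.92 to 0.22) for Ifit3 and -0.17 (95% interval -0.60 to 0.26) for Igtp. The myeloid markers Lyz2, Csf1r and Csf3r, given above, were lower in the same libraries, and their part was not tested.

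The 250 bases before the starts of Ifit3 (chr19:34583279-34583528), Ifit1 (chr19:34640639-34640888) and Igtp (chr11:58199306-58199555), all on the plus strand, are shown with the interferon-stimulated response element, searched on both strands as GAAA, any 2 bases and GAAA, in capitals. Ifit3 and Ifit1 had the lowest p among type I genes with these letters, and Igtp the lowest among such GTPases apart from the near-identical pair Tgtp1 and Tgtp2.
Ifit3: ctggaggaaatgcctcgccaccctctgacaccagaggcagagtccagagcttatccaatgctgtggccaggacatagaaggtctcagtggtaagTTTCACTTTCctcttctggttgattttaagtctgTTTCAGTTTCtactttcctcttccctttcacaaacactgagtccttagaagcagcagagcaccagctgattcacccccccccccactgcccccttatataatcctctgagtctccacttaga
Ifit1: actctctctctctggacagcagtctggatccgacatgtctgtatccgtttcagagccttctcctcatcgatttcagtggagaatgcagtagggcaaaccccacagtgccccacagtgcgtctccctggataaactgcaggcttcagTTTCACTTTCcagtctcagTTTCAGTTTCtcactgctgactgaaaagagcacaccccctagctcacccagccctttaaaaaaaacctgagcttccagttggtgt
Igtp: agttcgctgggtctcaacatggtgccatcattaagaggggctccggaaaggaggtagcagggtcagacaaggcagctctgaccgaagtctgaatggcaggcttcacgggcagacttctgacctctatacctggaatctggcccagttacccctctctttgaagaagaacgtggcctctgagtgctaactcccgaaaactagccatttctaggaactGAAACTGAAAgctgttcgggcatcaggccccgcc
Ifit3 and Ifit1 each held 2 matches on the opposite strand (read here as TTTC, 2 bases, TTTC), and Igtp held 1 whose last base lay 25 bases before its start. The element was in 8 of 19 type I windows (42.1%), in 9 of 10 GTPase windows (90.0%) and in 2.87% of all 11718. It was also in GTPase windows whose genes did not pass the test, such as Gbp3 and Gbp5, with changes of 0.40 and -0.01.

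Of 19 glycolysis genes 7 were higher and 1 lower, with a median of 0.31: the lactate exporter Slc16a3 changed by 2.94 ± 0.42 (SE, adjusted p = 5.6e-06), Gapdh by 0.83 ± 0.22 (SE, adjusted p = 0.0065) and Pdk1, which restrains pyruvate entry to mitochondria, by -2.47 ± 0.34 (SE, adjusted p = 4.2e-06). Sterol synthesis genes were higher in 7 of 21 cases and lower in none, with a median of 0.70 (0.42 within JL019 and 0.68 within JL027), led by Sc5d (1.37 ± 0.18 SE, adjusted p = 1.8e-06), Fdft1 (1.09 ± 0.17 SE, adjusted p = 3.2e-05) and Sqle (2.08). Fatty acid oxidation genes were called in 4 of 17 cases (23.5%, against 18.2% of all genes), led by Acadl (1.20 ± 0.16 SE, adjusted p = 2.3e-06). None of 33 oxidative phosphorylation and none of 19 proteasome genes was called by limma, and 0 and 2 had an unadjusted p under 0.05. The medians were 0.15 (0.53 within JL019 and -0.40 within JL027) and 0.13 (0.52 within JL019 and -0.52 within JL027). Cox5a, with the lowest p of the first, read 11006, 32800.1, 12083 and 16496 against 9491, 7747 and 16185, with Treg-treated library JL019-2 the highest.

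Genes of the S100, annexin and galectin families were higher in 10 of 17 cases and lower in none, with a median of 1.05. The median was 1.43 within JL019 and 0.36 within JL027, with 8 members called in the first, all higher, and 4 called higher and 2 lower in the second. Lgals3, encoding galectin-3, read 28294, 64006, 23274 and 30860.3 against 1133, 961 and 2610.0, a change of 4.57 ± 0.51 (SE, adjusted p = 1.1e-07). Anxa4, Anxa2 and S100a4 changed by 1.71, 2.18 and 2.83. The neutrophil genes S100a8 and S100a9, the 2 called lower within JL027, did not pass over all libraries, with -1.31 and -1.74. In the Bcl2 and Fas list, Bcl2 read 2632, 1835, 1975 and 2294 against 9969, 10041 and 11645, a change of -2.28 ± 0.24 (SE, adjusted p = 4.8e-08), and Fas changed by -1.47 ± 0.23 (SE, adjusted p = 2.3e-05). Bcl2a1d, an anti-apoptotic relative with near-identical copies, rose by 4.89 ± 0.33 (SE, adjusted p = 1.3e-11) and Pmaip1, encoding Noxa, by 2.36 ± 0.31 (SE, adjusted p = 2.2e-06). Of 20 amino acid stress genes, 3 were called, a share below the 18.2% of all genes: Asns, asparagine synthetase (3.13 ± 0.47 SE, adjusted p = 1.2e-05), Nupr1 (2.55 ± 0.83 SE, adjusted p = 0.031) and Shmt2 (-0.87 ± 0.24 SE, adjusted p = 0.0088).

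**Figure D3:**
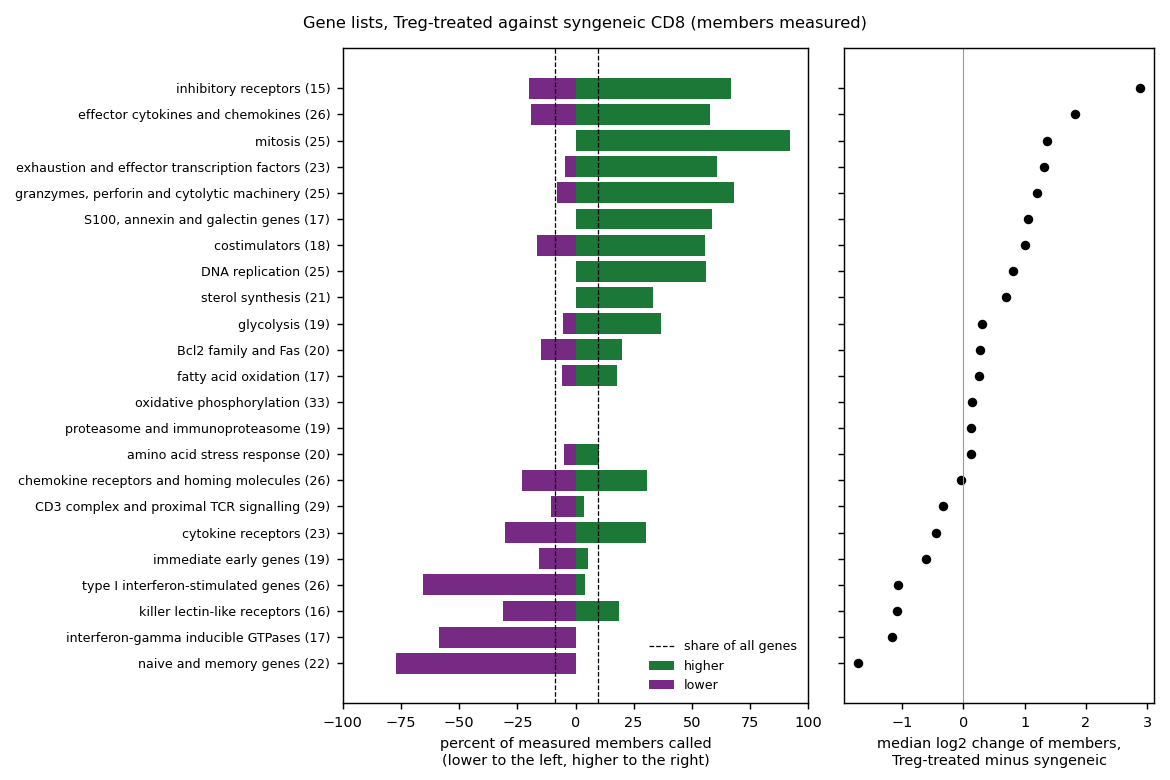
Left, the percent of measured members of each list called higher (to the right) or lower (to the left) in Treg-treated than in syngeneic CD8 cells, with dashed lines at 9.56% and 8.63%, the shares of all genes. Right, the median log2 change of the members. Among these 23 lists, which leave out the cell type markers, inhibitory receptors have the highest median and naive and memory genes the lowest.

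The 11 genes called between Treg-treated and allogeneic cells are given with their values in syngeneic cells. Id3 (ENSMUSG00000007872, chr4:136143822-136145392), an inhibitor of E proteins kept by naive and memory cells, read 223, 409.5, 587 and 687 in Treg-treated, 99.0, 92.8, 98.4 and 113 in allogeneic and 3130.4, 3273 and 4945 in syngeneic cells. Treg-treated cells were above all allogeneic libraries, by 2.11 (95% interval 1.54 to 2.69, adjusted p = 3.6e-04), and below all syngeneic ones, with a change of -3.07 ± 0.30 (SE, adjusted p = 1.3e-08). Rgs10, a regulator of G protein signals, lay between the groups in the same way, with 278, 693, 351 and 431 against 122, 164, 205 and 119 in allogeneic and 1433, 1169.7 and 2136 in syngeneic cells, differences of 1.47 (95% interval 0.96 to 1.97, adjusted p = 0.0083) from the first and -1.89 ± 0.27 (SE, adjusted p = 5.2e-06) from the second. Dapl1, of the naive list, had that order too, but its difference from allogeneic cells of 1.58 (95% interval 0.87 to 2.29, adjusted p = 0.075) missed the threshold.

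Sostdc1 (ENSMUSG00000036169), a secreted antagonist of BMP and Wnt signals, read 21.1, 125, 128 and 152 in Treg-treated cells, 1.65, 1.14, 7.84 and 3.43 in allogeneic and 0, 0.838 and 1.17 in syngeneic cells. The Treg-treated libraries were above both groups, by 4.48 (95% interval 3.34 to 5.61, adjusted p = 2.1e-04) and 5.76 ± 0.60 (SE, adjusted p = 3.4e-08), with JL019-1 the lowest of them. Cd83 also stood above both groups, with 240.4, 146, 257 and 247 against 24.0, 73.4, 93.3 and 64.6 and 59.2, 82.6 and 96.9, differences of 1.91 (95% interval 1.27 to 2.54, adjusted p = 0.0061) and 1.47 ± 0.33 (SE, adjusted p = 0.0019). Ncr1, an activating receptor of natural killer cells, read 66.4, 40.4, 60.2 and 107 against 6.49, 3.37, 8.67 and 1.72 and 6.71, 16.9 and 19.99, differences of 3.60 (95% interval 2.13 to 5.06, adjusted p = 0.045) and 2.20 ± 0.77 (SE, adjusted p = 0.047). Crem, a cyclic AMP response factor, and Nup35, a nuclear pore protein, were higher than in allogeneic cells by 1.00 (95% interval 0.60 to 1.40, adjusted p = 0.042) and 1.09 (95% interval 0.66 to 1.52, adjusted p = 0.042), and higher than in syngeneic cells by 2.99 ± 0.21 (SE, adjusted p = 2.7e-11) and 0.78 ± 0.23 (SE, adjusted p = 0.015).

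Of the 3 genes lower than in allogeneic cells, 2 were not shown to differ from syngeneic ones. Trib3, a pseudokinase of the amino acid stress response, read 147, 74.9, 109 and 76.4 against 244, 366, 242 and 624 in allogeneic and 30.9, 60.8 and 67.4 in syngeneic cells, a difference of -1.79 (95% interval -2.50 to -1.08, adjusted p = 0.042) from the first and 0.95 ± 0.37 (SE, adjusted p = 0.081) from the second. Septin8, of the septin family, read 70.00, 14.7, 84.8 and 42.8 against 135, 161, 144 and 207 and 36.4, 28.8 and 23.1, with -1.83 (95% interval -2.56 to -1.09, adjusted p = 0.042) and 0.59 ± 0.38 (SE, adjusted p = 0.34). Hhat, which palmitoylates hedgehog proteins, was lower than in allogeneic cells, with a difference of -1.13 (95% interval -1.58 to -0.67, adjusted p = 0.044), and higher than in syngeneic cells by 2.13 ± 0.24 (SE, adjusted p = 1.5e-07). The number of calls depended on the libraries in the limma fit. With only the 8 libraries compared in the model 0 genes passed, 1356 had an unadjusted p under 0.05, and in the full model 63 passed without allogeneic library JL027-1, 42 without Treg-treated library JL019-1, and 78 without a CD4 syngeneic library, JL019-2, that belongs to neither group. Without allogeneic library JL019-1, JL027-2 or JL019-2 or Treg-treated library JL027-2 in turn, the counts were 4, 5, 7 and 6. Crem, Hhat, Ncr1, Nup35, Septin8 and Trib3 each lost the call without 1 or more of these libraries, and Rgs10 lost it without allogeneic JL019-1 or JL027-2. Id3, Sostdc1, Cd83 and Cd200r1 kept the call whichever library of the Treg-treated or allogeneic group was left out.

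**Figure D4:**
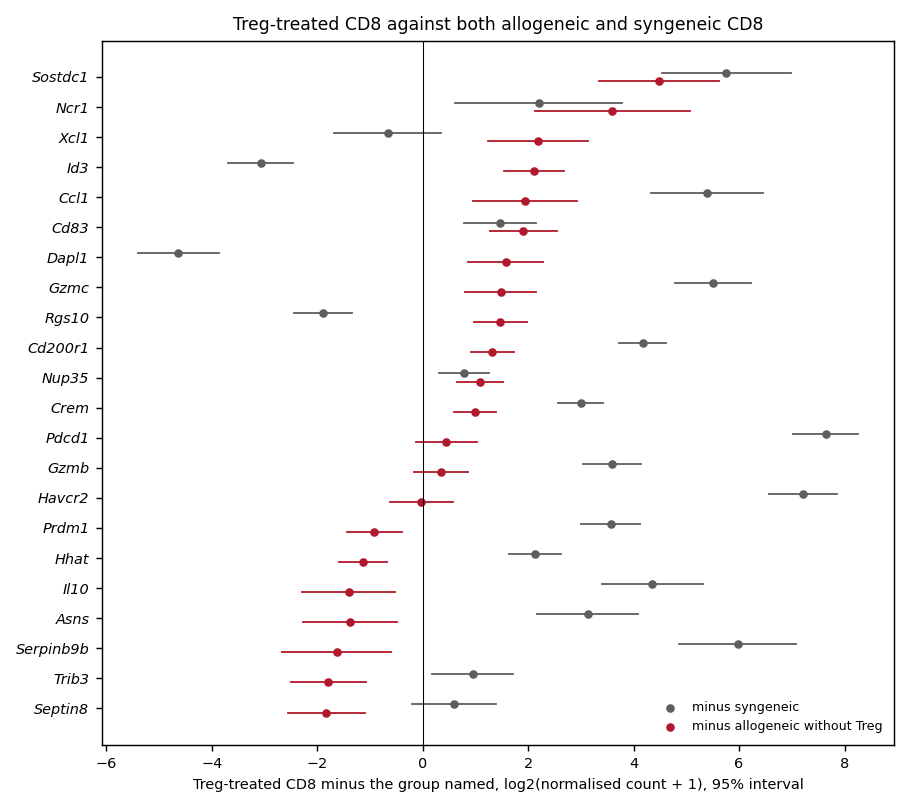
Differences of Treg-treated CD8 cells from syngeneic (grey) and from allogeneic (red) CD8 cells in log2(normalised count + 1), with 95% intervals from limma. For Id3, Dapl1 and Rgs10 the intervals lie on opposite sides of 0, and for Pdcd1, Gzmb and Havcr2 only the interval against allogeneic cells includes 0.

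Genes of Treg were examined because Treg had been infused. Of 9 Treg markers, 7 were higher than in syngeneic cells and 1 lower, and their sums were 27487 to 51167 against 6997 to 13651. Foxp3, the defining factor of Treg, read 236, 109, 153 and 126 in Treg-treated and 0, 3.52 and 0 in syngeneic libraries (adjusted p = 2.0e-08 in limma). In allogeneic recipients given no Treg it read 334, 453, 103 and 335, and the sums were 37083 to 42939. The list includes Il2ra, Ctla4, Nrp1 and Tnfrsf18, which activated CD8 cells also express. The part of Treg RNA in these values was not tested.

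T cell receptor sequencing of CD8 samples with the same group and replicate labels gave another readout. At 11487 reads drawn per library, the beta chain (TRB) clonality, which is 0 when all clonotypes are equal and 1 when there is 1, was 0.191, 0.170, 0.240 and 0.228 in Treg-treated cells and 0.0140, 0.0137 and 0.0201 in syngeneic cells. The means were 0.207 ± 0.0326 (SD, n = 4) and 0.0159 ± 0.00360 (SD, n = 3), without overlap, and the exact two-sided permutation p was 0.0571, the smallest that 4 against 3 libraries allow. Allogeneic libraries had a mean of 0.163 ± 0.0149 (SD, n = 4), and CD8 cells before transplantation 0.0111 and 0.00962. The Treg-treated and allogeneic groups overlapped (exact two-sided permutation p = 0.0571).

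The number of TRB clonotypes at that depth was 2413 ± 238 (SD, n = 4) with Treg and 8531 ± 454 (SD, n = 3) in the syngeneic group, 0.283 times as many, again without overlap and with an exact permutation p of 0.0571. The 10 largest clonotypes held 19.9% (Wilson 95% interval 19.2% to 20.5%), 16.2% (16.0% to 16.4%), 25.1% (24.4% to 25.8%) and 26.9% (26.3% to 27.5%) of TRB reads in the Treg-treated libraries. In syngeneic libraries they held 0.826% (0.713% to 0.958%), 1.21% (1.04% to 1.41%) and 1.79% (1.64% to 1.96%). Intervals cover counting error only, since PCR reads without molecular identifiers are not independent molecules. Total reads were 13834 to 133115 and 13449 to 25255. The alpha chain (TRA), at 6870 reads, gave clonalities of 0.277 ± 0.0730 (SD, n = 4) and 0.0442 ± 0.00407 (SD, n = 3), with both JL027 Treg-treated libraries above both JL019 ones.

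**Figure D5:**
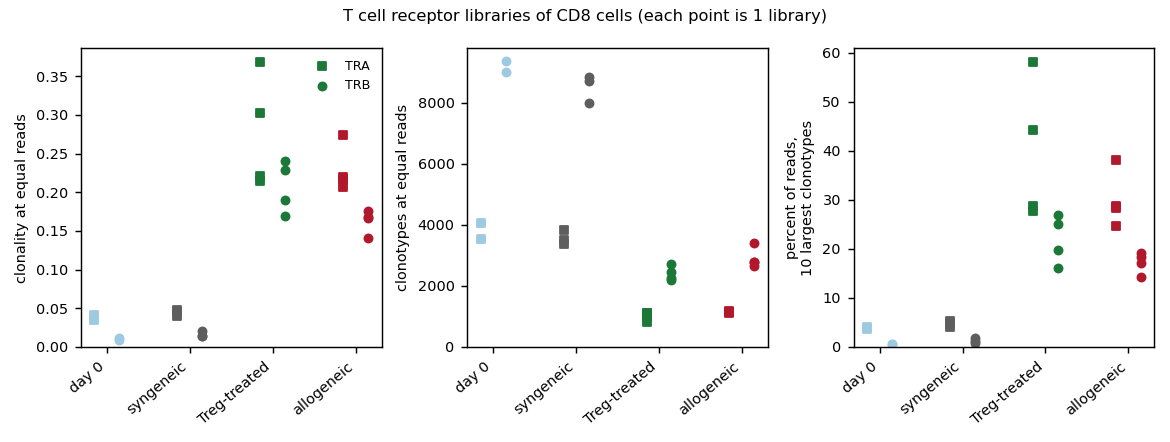
Each point is 1 CD8 library (squares TRA, circles TRB): clonality and number of clonotypes at equal reads, and the percent of all reads in the 10 largest clonotypes. Treg-treated and allogeneic libraries lie apart from syngeneic and day 0 libraries of the same chain in every panel.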

How the data were processed

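CD8 T cells were profiled by RNA-seq (31 libraries in the table, 11 used for the values here) and by T cell receptor amplicon sequencing. The expression values were a signal the authors deposited: per the submitters' processing notes and the values themselves, kallisto estimates normalised with DESeq2 on GRCm38, not whole reads, so depth is unknown. The authors' own comparison columns were not used. The clonotype files hold read counts deposited by the authors for each V, J and CDR3 combination.

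Because the values were not counts, genes were tested with limma 3.58.1 (R 4.3.3; trend and robust variance) on log2(value + 1), in 1 model with a mean for each of 10 groups over 31 libraries. A minimum mean of 1 removed no gene, and 396 rows share their values with another row. The script was tested on simulated data. Clonality and clonotype number were means of 20 draws to equal reads, compared by exact permutation. Gene lists and comparisons were chosen with earlier results of these data known. Named genes were the 10 lowest p in each direction without overlap between groups (predicted genes and some others are not reported here), list members led by the 4 lowest p of each list, and all genes called against allogeneic cells. Alternatives covered pseudocount, filter, scaling, weights, blocks, libraries in the fit and leaving out each library. For the promoter windows, 11718 genes matched RefSeq by symbol.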

Additional observations from a re-analysis of the deposited data

Results flagged for a closer look

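Among 211 sets of 4 Treg-treated CD8 values (the genes named and the receptor read totals), 19 had 1 library set apart from the other 3 by a gap that filled most of their range (above the 95% critical value of Dixon's test). Chance alone does this in about 1 of 20 sets. Library JL019-1 was the highest for Bach2 (139), Bhlhe40 (21892), Dusp5 (11109) and S1pr1 (11779), in normalised counts. Library JL019-1 was the lowest for Prc1 (5286) and Sostdc1 (21.1), in normalised counts. Library JL019-2 was the highest for Ifnar2 (1982), Nupr1 (77.8) and Usp18 (1329), in normalised counts. Library JL019-2 was the lowest for Cd83 (146), Csf1r (2.17), Mcm3 (5196), Mcm5 (6639.8) and Sqle (632), in normalised counts. Library JL027-1 was the lowest for Klrb1b (679.9), in normalised counts. Library JL027-2 was the highest for Serpinb9 (46269), in normalised counts. Library JL027-2 was the lowest for Tgfbr3 (0), in normalised counts. Library JL019-2 also had the most receptor reads, 39867 for TRA and 133115 for TRB, where the other 3 had at most 12204 and 22117.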

How the results depend on the processing

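The named genes that were called kept their direction under every alternative run, all of which reused the libraries on which they were called. Of 167, 69 lost the call against syngeneic cells under at least 1 alternative: 47 within JL019, 50 within JL027, 17 with the replicate block, 16 with only the compared groups, 20 without the 2 libraries of steepest span trend (chosen after seeing the data), and at most 8 under each other setting that left out no library. When 1 library was left out, 27 lost it: Cd101, Cd5, Cd6, Col3a1, Crtam, Csf1r, Csf3r, Cxcl10, Dusp5, Foxo1, Gapdh, Ifih1, Il15ra, Il22, Itgax, Klra5, Klrb1c, Lck, Lef1, Lyz2, Ncr1, Nup35, Nupr1, Pecam1, Tnfrsf18, Tnfsf14 and Tox. By library, 5, 10, 13 and 10 calls were lost without Treg-treated JL019-1, JL019-2, JL027-1 and JL027-2, and 20, 17 and 18 without syngeneic JL019-1, JL019-2 and JL027. Of the 32 named genes that did not pass against syngeneic cells, 20 gained a call under at least 1 alternative. By setting, 18 gained it with array weights, 5 without CD4 syngeneic library JL019-2, 4 with only the compared groups and 4 within JL027. The 3045 genes called between Treg-treated and syngeneic cells became 1974 with only the compared groups in the fit, 7398 with array weights (whose estimation stopped before converging), and 1202 within JL019 and 1307 within JL027, and 2338 to 3029 when each library was left out. With the replicate block the count was 2501. The 11 genes called against allogeneic cells became 13 with the replicate block, 18 with the label prefix as a block, 321 with array weights, 78 without CD4 syngeneic library JL019-2, 0 with only the compared groups (1356 at unadjusted p under 0.05), 0 within JL019 (1335 unadjusted) and 3 within JL027, and 4 to 63 when each library was left out. The causes were not tested. Deviations of same-numbered Treg-treated and syngeneic libraries correlated at 0.11 for JL019-1 and -0.24 for JL019-2, so the numbers were not taken to pair the samples. The clonality and clonotype number differences kept their direction under all alternatives; without subsampling the clonotype numbers overlapped (exact permutation p = 0.114). Leaving out a library raised the smallest possible exact permutation p to between 0.1 and 0.133. Depth of the expression libraries is unknown, which limits what can be said of genes at or near 0.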
